A study of Arabidopsis thaliana with 14 samples.

Results

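The chalazal and the micropylar endosperm, which lie at opposite ends of the Arabidopsis thaliana seed, were compared on 4 of the 14 arrays of the study, 2 for each pole, picked by their sample titles. The other 10 arrays cover the cellularized endosperm between the poles, the general seed coat, the chalazal seed coat, the embryo proper and whole seeds, again with 2 each. All plants were of the genotype Ws-0, untreated, 38 to 46 days old and grown in continuous light, and seeds were taken at the linear-cotyledon stage, with embryos 175 ± 11 µm long. Compartments were cut by laser from sections of fixed, paraffin-embedded siliques, and amplified cDNA from 2 to 5 ng of RNA a sample was read on Affymetrix ATH1 arrays. The replicates are called biological in the labels, which do not say which plants or how many seeds gave each one, so p-values cover the spread of these samples alone, which may be technical.

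The endosperm is the seed tissue that nourishes the embryo. It begins as a syncytium, in which nuclei divide without cell walls, and then forms cells in a wave that starts around the embryo at the micropylar pole. The chalazal end, a cyst with large nuclei, is the last to form cells and lies against the maternal tissue where the vascular strand of the mother plant ends, a position known for the uptake of maternal nutrients. The micropylar end surrounds the embryo and is later crossed by the growing root.

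The labels of the micropylar arrays conflict, since a description field speaks of whole seeds while the title and source name micropylar endosperm, and the design text of the series names micropylar endosperm more than once and omits chalazal endosperm. The titles were followed. The micropylar and whole-seed arrays carry a sample code in their labels that the other 10 lack, and no source says whether they were prepared separately, so preparation and pole cannot be told apart here. Across probe sets, Pearson r was 0.878 between the chalazal arrays, 0.912 between the micropylar arrays and 0.466 to 0.495 between an array of one pole and an array of the other. Values for the chalazal and cellularized endosperm were 0.531 to 0.55, against 0.808 to 0.825 for the micropylar and cellularized endosperm and 0.763 to 0.777 for the micropylar endosperm and whole seeds. The highest values of the chalazal endosperm with another group, 0.556 to 0.607, were with the adjoining chalazal seed coat. These correlations are across probe sets, which are not independent replicates. The GAPDH ratio (3' over 5' probe sets), which rises as RNA is degraded, was 13.6 and 8.34 on the chalazal arrays, above the 6.42 and 3.59 on the micropylar arrays and the highest among the 14 arrays, while the ubiquitin ratios were 8.63 and 8.72 on the chalazal arrays against 6.03 and 7.5 on the micropylar arrays. The actin ratios ran the other way, at 14.8 and 9.01 on the chalazal arrays against 23.6 and 10.8 on the micropylar arrays. The part of these differences in the results below was not tested.

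Markers of the poles from the literature could seldom be used to check the labels, because of the 9 listed for the micropylar endosperm 0 had a probe set naming that gene alone, and of the 6 for the chalazal endosperm 1 had. That one, the MADS-box gene AGL62, which keeps the endosperm syncytial, read 2.87 and 17.6 on the chalazal arrays and 28.7 and 13.7 on the micropylar arrays and was too dim to test. The genes NET1C, BGLU29 and EXPA4, chosen for this comparison with its results known, describe the poles without testing them. NET1C, an actin-binding protein, read 7863 and 7889 in the chalazal endosperm, against 22.9 and 124.1 in the micropylar endosperm. BGLU29, a beta-glucosidase, read 26.2 and 3.5 in the chalazal endosperm, against 7780 and 6766 in the micropylar endosperm, and EXPA4, an expansin that loosens cell walls, read 51.4 and 82.2 against 6967 and 5873. The arrays of the poles lay far apart for all 3 genes. EXPA4 was also higher on the micropylar arrays than in whole seeds, with a mean of 6420 against 1586. Given how it was chosen, this does not test the label.

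The poles differed at a large share of the genes. Of 15949 probe sets tested with limma, 5783 (36.3%) differed at an adjusted p below 0.05 and at least 2-fold, 2385 (15.0%) higher and 3398 (21.3%) lower in the chalazal endosperm, and the median change over all probe sets tested was -0.07 on the log2 scale. Readings of a gene are array signal intensities, given for replicates 1 and 2 of each pole, and changes are log2 fold changes of chalazal over micropylar endosperm on the log2(signal + 16) scale. Both arrays of one pole lay beyond both of the other at 10997 probe sets (69.0%), among them every called one. Falls were the more frequent at 4-fold or more, with 1504 probe sets higher and 2646 lower, and the rises outnumbered them among the 64-fold changes, with 132 higher and 92 lower. When the arrays were scaled to equal medians the median change became 0.19 and the share of calls that were higher became 50.7%, against 41.2%, so the balance of the directions depends on the scaling. Since the material is a mixture of nuclei and cells, a lower level may stand for fewer cells with the transcript or for less of it in each, which cannot be told apart.

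**Figure D1:**
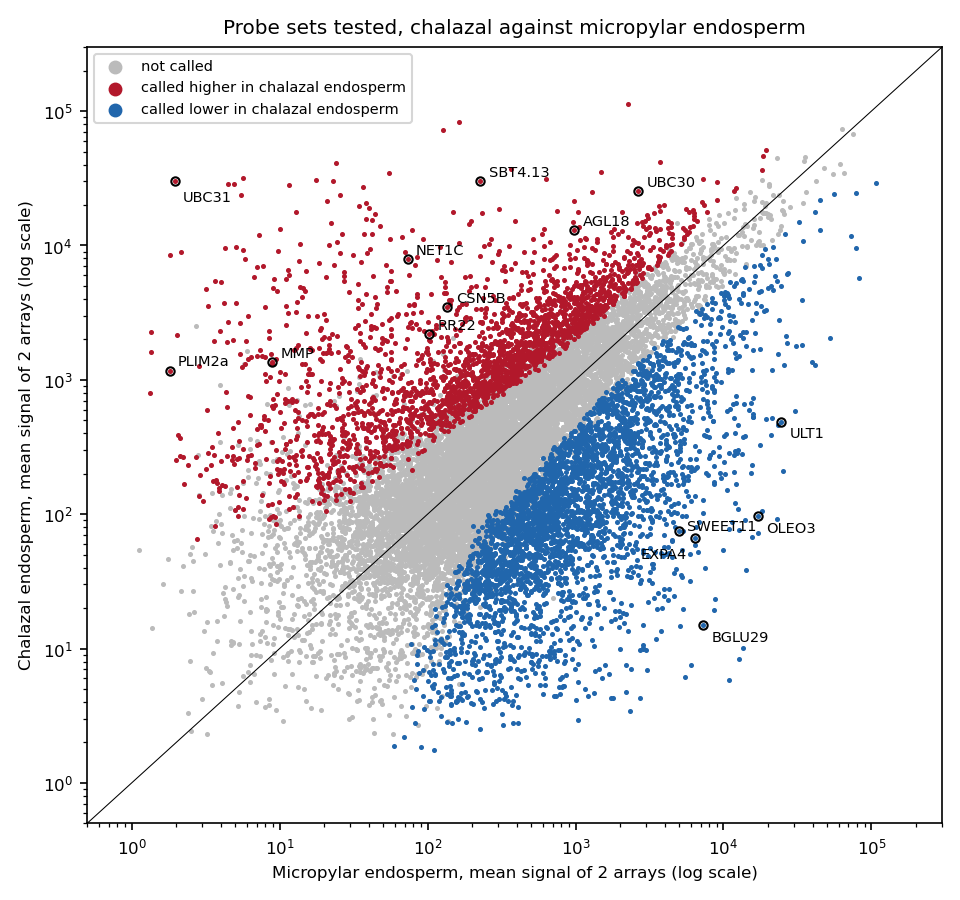
Mean signal of each tested probe set in the chalazal endosperm (vertical, log scale) against the micropylar endosperm (horizontal, log scale), 2 arrays each, with called probe sets in red (higher in the chalazal endosperm, 2385) or blue (lower, 3398) and selected genes circled. UBC31 lies at the upper left, with means of 30093 in chalazal and 1.95 in micropylar endosperm, and BGLU29 at the lower right, with 14.9 and 7273.

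The largest rise among genes with a symbol was in the ubiquitin pathway, which tags proteins for degradation by passing ubiquitin along activating, conjugating and ligase enzymes. UBC31, a ubiquitin-conjugating enzyme (AT1G36340), read 29507 and 30679 in the chalazal endosperm, against 1.12 and 2.79 in the micropylar endosperm, a log2 change of 10.71 (SE 0.76, adjusted p = 1.01e-08). Because its micropylar signals lie below the pseudocount of 16 added to all values, the size of this change depends on it, at 13.38 with a pseudocount of 1 and 8.84 with 64. SK16 (AT2G03190), a Skp1-like protein of the kind that joins F-box proteins to ubiquitin ligases, read 5704 and 5561 in the chalazal endosperm, against 8.22 and 10.03 in the micropylar endosperm (7.81, SE 1.02, adjusted p = 1.05e-05). UBC30, another conjugating enzyme, was clearly detected at both poles, with 21574 and 29092 in chalazal and 2738 and 2584 in micropylar endosperm (3.23, SE 0.29, adjusted p = 1.47e-07). The chalazal arrays were the high ones for all 3 genes, and the poles did not overlap, as the rule that picked them required.

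Of 35 tested genes of the ubiquitin list 10 rose and 3 fell, with a median of 0.80, against 15.0% and 21.3% of all probe sets and their median of -0.07. Among the deubiquitinating proteases, UBP20 rose by 2.82 (SE 0.59, adjusted p = 0.00101). UBP21 was higher by 2.73 (SE 0.74, adjusted p = 0.00729) and UBP19 by 2.45 (SE 0.56, adjusted p = 0.00201). UBC16, a conjugating enzyme, went the other way, with 460.5 and 487.6 in chalazal and 4545 and 3507 in micropylar endosperm (-3.03, SE 0.35, adjusted p = 2.61e-06). The calls of 6 of the 10 genes that rose and 1 of the 3 that fell, UBC16, held under every alternative analysis in which they were tested. CSN5B, not on the list, encodes a catalytic subunit of the COP9 signalosome, which regulates cullin-based ubiquitin ligases. It read 3404 and 3546 in the chalazal endosperm, against 33.6 and 238.5 in the micropylar endosperm (4.96, SE 0.73, adjusted p = 3.7e-05).

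Response regulators, the last members of the phosphorelay that carries the cytokinin signal, were divided between the poles. RR19, of the DNA-binding type B, read 9080 and 8413 in the chalazal endosperm, against 66.7 and 11.5 in the micropylar endosperm (7.52, SE 1.03, adjusted p = 1.75e-05). RR23 read 7151 and 5543 in chalazal and 7.43 and 47.3 in micropylar endosperm (7.36, SE 0.87, adjusted p = 3.54e-06). RR22, a type C regulator that lacks a DNA-binding domain, read 2861 and 1514 against 91.6 and 112.5 (4.16, SE 0.56, adjusted p = 1.47e-05). For these 3 genes both chalazal arrays were high, but RR22 was higher still in the adjoining chalazal seed coat, at a mean of 18442. ARR15, a type A regulator induced by cytokinin that damps the signal, had the opposite pattern, with 7.01 and 115.7 in chalazal and 1190 and 806.9 in micropylar endosperm (-4.18, SE 0.76, adjusted p = 0.000291). The other 2 tested genes of the cytokinin list did not pass: RR16, another type A regulator, stood at -1.40 (adjusted p = 0.121) and UGT76C2, which inactivates cytokinins by adding glucose, at -1.72 (adjusted p = 0.0516). In all, 3 of 6 cytokinin genes rose and 1 fell, against 15.0% and 21.3% of all probe sets, with a median of 1.38. IPT4 and IPT8, the cytokinin synthesis genes used as chalazal markers, had no probe set naming them alone.

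Among regulators of endosperm development, MADS-box transcription factors made up most of the genes that rose. AGL33 read 2794 and 4634 in the chalazal endosperm, against 4.645 and 5.56 in the micropylar endosperm (7.42, SE 1.09, adjusted p = 3.59e-05). AGL104, which acts in pollen maturation, read 450.5 and 577.1 against 5.88 and 9.91 (4.47, SE 0.84, adjusted p = 0.000412). AGL18, which delays flowering, was measurable at both poles, with 13351 and 12542 in chalazal and 1144 and 822.7 in micropylar endosperm (3.72, SE 0.44, adjusted p = 3.24e-06), and its mean in the chalazal seed coat was 18919. DME, the DNA glycosylase whose demethylation in the central cell sets up imprinting in the endosperm, had the reverse pattern, with 124.3 and 47.8 in chalazal and 2456 and 1876 in micropylar endosperm (-4.52, SE 0.48, adjusted p = 9.94e-07). The list held 50 genes on the array, of which 18 passed the filter on low values. Of these 5 rose and 2 fell, against 15.0% and 21.3% of all probe sets, with a median of 1.22. In all, 3 rises and the fall of DME held under every alternative in which they were tested. ULT1, a SAND-domain protein known for limiting the size of shoot and floral meristems, read 363.3 and 614.2 in chalazal and 21235 and 27686 in micropylar endosperm (-5.63, SE 0.31, adjusted p = 1.02e-09).

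Actin-binding proteins were found on both sides. NET1C, described above, rose by 6.74 (SE 0.57, adjusted p = 7.4e-08). PLIM2a, a LIM-domain protein that bundles actin and is known from pollen, read 825.6 and 1516 in the chalazal endosperm, against 1.94 and 1.68 in the micropylar endosperm (5.99, SE 0.96, adjusted p = 8.52e-05), and WLIM2a, a related protein known from many tissues, read 6.41 and 13.4 in the chalazal endosperm, against 1886 and 2090 in the micropylar endosperm (-6.29, SE 0.62, adjusted p = 3.97e-07). The poles thus differed in opposite directions for these LIM-domain genes.

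Genes of proteases and of specialised metabolism also differed in both directions. SBT4.13, a subtilisin-like serine protease, read 30351 and 30066 in chalazal and 34.4 and 420.5 in micropylar endosperm (7.67, SE 0.95, adjusted p = 5.53e-06), and MMP, a matrix metalloproteinase, read 1423 and 1284 against 9.33 and 8.53 (5.78, SE 0.92, adjusted p = 8.33e-05). SBTI1.1, also a subtilase but not on the protease list, was low in the chalazal endosperm, with 91.05 and 212.5 against 8888 and 12138 (-6.06, SE 0.4, adjusted p = 5.67e-09). The protease list had 4 rises and 9 falls among 30 tested genes and a median of -0.26, against 15.0% and 21.3% of all probe sets. Of the 9 falls 7 were in serine carboxypeptidase-like genes, which also made up most of the tested list. Among these, scpl48 had 546.2 and 470.7 in chalazal and 16219 and 22562 in micropylar endosperm (-5.19, SE 0.41, adjusted p = 3.39e-08). ALPHA-VPE, a vacuolar processing enzyme, fell by 2.33 (SE 0.51, adjusted p = 0.00138).

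CYP79A2, a P450 that converts phenylalanine to its aldoxime in benzylglucosinolate synthesis, read 6512 and 7861 in the chalazal endosperm, against 42.8 and 3.56 in the micropylar endosperm (7.72, SE 0.96, adjusted p = 5.72e-06). AOP3, a dioxygenase that modifies the side chain of other glucosinolates, had 3.91 and 27.0 in chalazal and 2401 and 1860 in micropylar endosperm (-6.19, SE 0.79, adjusted p = 7.43e-06). GSTU15, a tau-class glutathione transferase, read 7007 and 8014 in the chalazal endosperm, against 36.7 and 34.2 in the micropylar endosperm (7.19, SE 0.64, adjusted p = 1.21e-07), whereas 2 others of the same class fell, GSTU18 (-4.54, SE 0.58, adjusted p = 7.54e-06) and GSTU20 (-2.43, SE 0.44, adjusted p = 0.000318). Of 8 tau-class genes 1 rose and 3 fell, with a median of -1.25, and of 9 P450 genes 3 rose and 3 fell, with a median of 0.12. Among all probe sets 15.0% rose and 21.3% fell. Both tested enzymes that join phenolic acids to spermidine fell. SDT read 5.41 and 13.95 in the chalazal endosperm, against 3678 and 1807 in the micropylar endosperm (-6.68, SE 0.81, adjusted p = 4.26e-06), and SHT fell by 3.37 (SE 0.69, adjusted p = 0.000918).

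Small secreted cysteine-rich peptides of the defensin type were lower in the chalazal endosperm where they held their call. PDF2.1 read 287.5 and 120.5 in chalazal and 15463 and 15234 in micropylar endosperm (-6.24, SE 0.46, adjusted p = 1.42e-08), and LCR69 read 7968 and 11321 against 54809 and 102365 (-2.98, SE 0.3, adjusted p = 5.07e-07). LCR68, the third that fell (-3.09, SE 0.65, adjusted p = 0.00102), was at a mean of 23048 in the chalazal seed coat. The list had 1 rise and 3 falls among 7 tested genes, against 15.0% and 21.3% of all probe sets, with a median of -0.12.

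**Figure D2:**
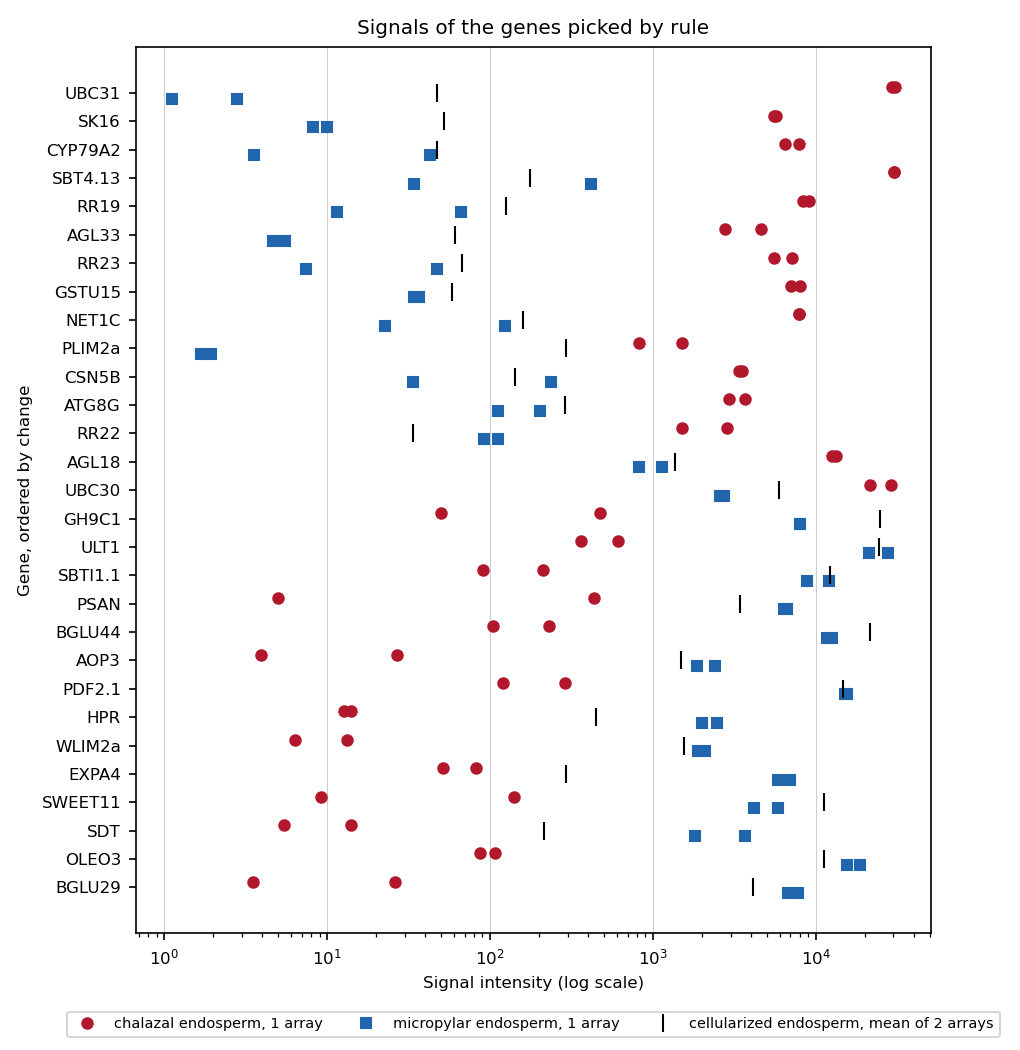
Signal on each of the 2 chalazal (red circles) and 2 micropylar endosperm arrays (blue squares), with the mean of the cellularized endosperm (black ticks), for the 29 genes picked by rule and ordered by change, on a log axis. The chalazal and micropylar signals of each gene do not overlap, which the rule required. The black tick lies closer to the micropylar mean on the log scale for 14 of the 15 genes that rose and 12 of the 14 that fell.

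Of the cell wall genes that differed, most were lower in the chalazal endosperm. Expansins loosen walls, and family 9 endoglucanases cut glucan chains in them. EXPA4 fell by 6.30 (SE 0.6, adjusted p = 2.57e-07). The endoglucanase GH9C1 had 472.7 and 50.1 in chalazal and 8015 and 8014 in micropylar endosperm (-5.48, SE 0.73, adjusted p = 1.32e-05), GH9B8 fell by 5.77 (SE 0.58, adjusted p = 6.12e-07) and GH9C2 by 5.34 (SE 0.6, adjusted p = 2.03e-06). Of 27 tested wall genes 11 fell, against 21.3% of all probe sets, 2 rose and 14 were not called, with a median of -1.35. The 2 that rose were EXLA1 and EXLA2, of the expansin-like A subfamily. EXLA1 read 5080 and 7759 in chalazal and 1077 and 986.4 in micropylar endosperm (2.59, SE 0.42, adjusted p = 0.000102), with a mean of 23819 in the chalazal seed coat, and EXLA2 read 307.9 and 263.9 against 2.3 and 4.31 (3.97, SE 0.76, adjusted p = 0.000488). Of the 11 falls, 7 held under every alternative in which they were tested.

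Enzymes that release sugar from glycosides and starch were low in the chalazal endosperm where they differed. BGLU29 had the largest fall of the genes named (-7.99, SE 0.45, adjusted p = 1.35e-09). BGLU44, a beta-glucosidase that acts on mannosides, read 104.1 and 231.9 in chalazal and 11744 and 12508 in micropylar endosperm (-6.14, SE 0.41, adjusted p = 5.72e-09). AMY1, an alpha-amylase, read 23.6 and 52.9 in the chalazal endosperm, against 2005 and 2542 in the micropylar endosperm (-5.44, SE 0.59, adjusted p = 1.22e-06), and DPE1, a plastid enzyme of starch breakdown, fell by 3.80 (SE 0.44, adjusted p = 2.62e-06). In this list 5 of 13 tested genes fell and 0 rose at the threshold, against 21.3% and 15.0% of all probe sets, with a median of -0.52, and 4 of the 5 falls held under every alternative in which they were tested.

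Nutrient transporters went both ways, with 4 of 17 tested genes higher and 5 lower, and a median of 0.10. Those shares, 23.5% and 29.4%, compare with 15.0% and 21.3% of all probe sets. The 5 falls and 2 of the 4 rises, AT1G27040 and ZIP6, held under every alternative in which they were tested. SWEET11, a sucrose exporter that supplies the embryo, read 9.18 and 140.6 in chalazal and 4165 and 5868 in micropylar endosperm (-6.30, SE 0.65, adjusted p = 7.76e-07), and SAG29, also named SWEET15, fell by 2.29 (SE 0.48, adjusted p = 0.00103). AtVEX1, the SWEET transporter also called SWEET5, fell by 5.37 (SE 0.7, adjusted p = 9.83e-06). MTP11, which moves manganese into vesicles, fell by 3.95 (SE 0.4, adjusted p = 6.41e-07). In the other direction, AT1G27040, which encodes NPF4.5 of the nitrate and peptide transporter family, read 13357 and 9055 in the chalazal endosperm, against 289.1 and 245.4 in the micropylar endosperm, 65.6 in the cellularized endosperm and 219.3 in the chalazal seed coat (5.29 between the poles, SE 0.91, adjusted p = 0.000181). Its relative AT3G25260, NPF4.1, had 146.2 and 369.7 against 5331 and 4863 (-4.35, SE 0.45, adjusted p = 8.47e-07). The metal transporter ZIP6 rose by 3.27 (SE 0.55, adjusted p = 0.000145), with 548.8 and 251.4 in the chalazal and 48.3 and 9.2 in the micropylar endosperm, but its mean in the chalazal seed coat was 8108. SWEET10, at 84.95 and 420.1 in the chalazal and 9.59 and 2.55 in the micropylar endosperm, reached 1.74% of its chalazal seed coat mean of 14508, and whether its RNA came from that neighbour was not tested.

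Storage and maturation genes were split as well. OLEO3, an oleosin that coats oil bodies, read 106.8 and 86.7 in the chalazal endosperm, against 15473 and 18837 in the micropylar endosperm (-7.25, SE 0.36, adjusted p = 5.03e-10), with means of 11319 in the cellularized endosperm and 16217 in the embryo proper. AT2G44060 and AT2G46140, which encode the late embryogenesis abundant proteins LEA26 and LEA27, rose. LEA26 read 14844 and 12752 in chalazal and 974.1 and 1151 in micropylar endosperm (3.68, SE 0.3, adjusted p = 5.17e-08), and LEA27 read 8542 and 7918 against 710.6 and 720.2 (3.49, SE 0.8, adjusted p = 0.00213). In all 2 of 9 tested genes rose and 2 fell, against 15.0% and 21.3% of all probe sets, with a median of 0.69. The maturation regulators EEL and BZIP53 stood at -0.91 (adjusted p = 0.0461) and 0.69 (adjusted p = 0.146), each under 2-fold.

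**Figure D3:**
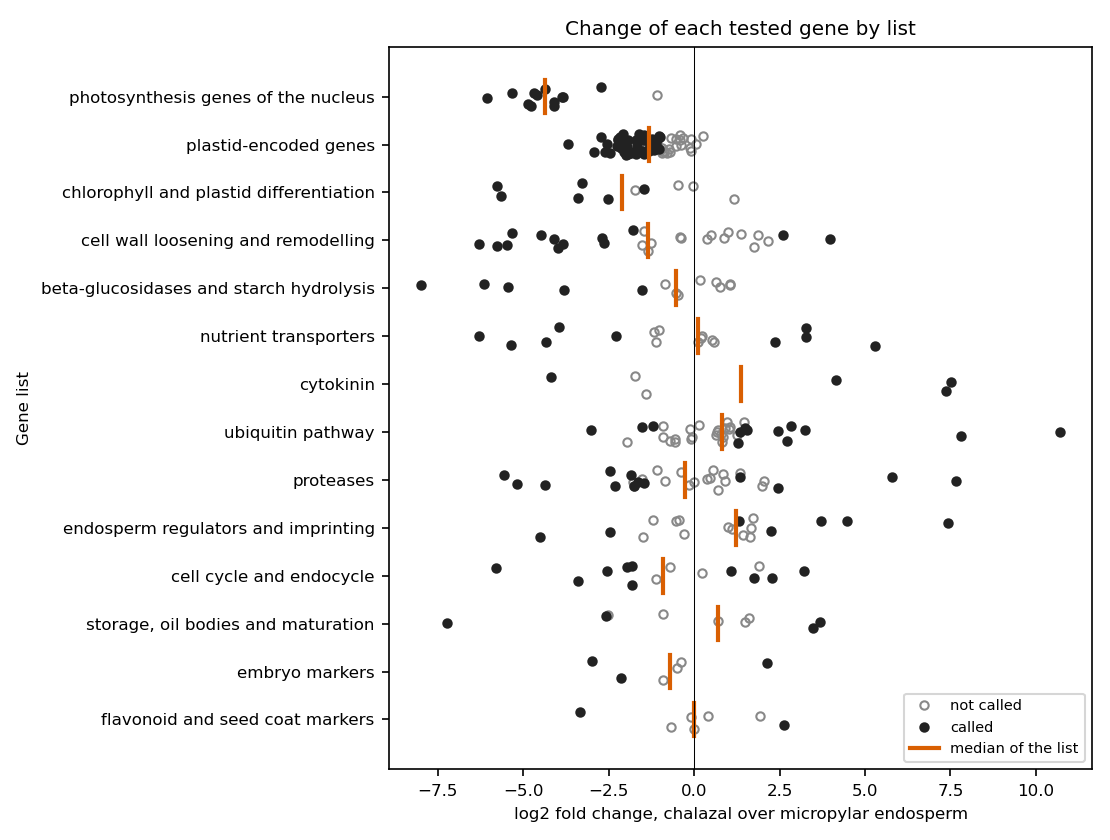
Log2 fold change, chalazal over micropylar endosperm, of each tested gene in 14 of the lists, with called genes filled, the others open and the list's median in orange. The nuclear photosynthesis genes lie between -6.07 and -1.08, to the left of 0, while the ubiquitin list spans -3.03 to 10.71 around a median of 0.80.

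Photosynthesis genes were lower in the chalazal endosperm almost throughout. Photosystems capture light in plastids, and the Calvin cycle fixes carbon with the energy gained. Their proteins are encoded partly in the nucleus and partly in the plastid's own genome. Of 13 tested nuclear genes 12 were lower in the chalazal endosperm and 0 higher, with a median of -4.37, against 21.3% lower and a median of -0.07 over all probe sets, and the 12 calls held under all alternatives. The thirteenth, PGRL1B, which acts in cyclic electron flow, had 143.9 and 213.1 in chalazal and 381 and 396.2 in micropylar endosperm (-1.08, adjusted p = 0.139).

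PSAN, a subunit of photosystem I, read 5.04 and 435 in chalazal and 6650 and 6408 in micropylar endosperm (-6.07, SE 0.83, adjusted p = 1.58e-05). Its chalazal arrays differed widely from each other, but both lay below the micropylar ones. PSAE-1, of the same complex, read 514.6 and 685.4 against 16428 and 13253 (-4.60, SE 0.37, adjusted p = 4.09e-08). Genes of antenna proteins that pass light energy to photosystem II fell too, LHCB4.1 at -4.11 (SE 0.28), LHCB4.2 at -4.37 (SE 0.39) and LHCB4.3 at -4.79 (SE 0.45), with adjusted p of at most 2.32e-07. In the Calvin cycle, PRK (phosphoribulokinase) read 403.5 and 657.2 in chalazal and 12701 and 18783 in micropylar endosperm (-4.86, SE 0.35, adjusted p = 1.4e-08), SBPASE, which regenerates the substrate of carbon fixation, fell by 4.70 (SE 0.5, adjusted p = 1.13e-06) and RCA (rubisco activase) fell by 3.87 (SE 0.47, adjusted p = 4.45e-06). HPR, a peroxisomal reductase of photorespiration, read 14.1 and 12.7 in chalazal and 2012 and 2483 in micropylar endosperm (-6.26, SE 0.65, adjusted p = 8.45e-07). Means for PRK were 11896 in the cellularized endosperm and 12800 in the embryo proper, so its high level was not particular to the micropylar pole.

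Several chlorophyll synthesis genes were lower too. CHLM, which methylates the magnesium-porphyrin precursor, read 29.8 and 13.8 in the chalazal endosperm, against 1617 and 2438 in the micropylar endosperm (-5.76, SE 0.52, adjusted p = 1.37e-07), and PORB, which makes chlorophyllide in light, read 21 and 92 against 3333 and 3040 (-5.66, SE 0.48, adjusted p = 6.61e-08). CHLI2, a magnesium chelatase subunit, fell by 3.39 (SE 0.54, adjusted p = 8.16e-05), and FTSZ2-2, a plastid division protein, by 3.27 (SE 0.62, adjusted p = 0.000431). Of 10 tested genes 6 fell and 0 rose, against 21.3% and 15.0% of all probe sets, with a median of -2.12. The 4 falls given above held under every alternative in which they were tested. FTSZ2-1, also of plastid division, and HEME2 were the other falls. The 4 genes that did not pass all act in tetrapyrrole synthesis, with HEME1 at -1.73 (adjusted p = 0.064), HEMB1 at -0.47 (adjusted p = 0.318), hemf2 at -0.03 (adjusted p = 0.983) and HEMA3 at 1.18 (adjusted p = 0.425).

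Genes encoded in the plastid itself were also lower, by less. Of 69 tested 47 fell and 0 rose, with a median of -1.31, against 21.3% lower and a median of -0.07 over all probe sets. Under every alternative in which they were tested 34 of these falls held, and 35 genes fell when arrays were scaled to equal medians. The genes with the largest falls were petL of the cytochrome b6f complex, with 416.6 and 273.7 in chalazal and 5930 and 3512 in micropylar endosperm (-3.69, SE 0.47, adjusted p = 8.46e-06), and psbM of photosystem II (-2.92, SE 0.49, adjusted p = 0.000126). rbcL, the large subunit of rubisco, had 13502 and 12739 in chalazal and 30120 and 59622 in micropylar endosperm (-1.69, SE 0.25, adjusted p = 4.21e-05). The fall was not limited to photosynthesis: all 4 rpo genes, which encode the plastid's RNA polymerase, fell (median -1.92), as did 11 of 15 rps and rpl genes of its ribosome. Among 5 psa genes of photosystem I, 1 fell, psaA (-2.13, SE 0.26, adjusted p = 5.8e-06), and psbA stood at -0.40 (adjusted p = 0.225). Plastid genomes are present in many copies and their genes lie on shared transcripts, so these genes are not independent of each other. Of 15 tested genes of the mitochondrial genome 1, matR (-1.01, SE 0.34, adjusted p = 0.0243), fell and 0 rose, with a median of -0.30. That call ended under 6 alternatives, among them leaving out chalazal endosperm replicate 1 (adjusted p = 0.225) or micropylar endosperm replicate 1 (0.0719) or 2 (0.113). The plastid and mitochondrial lists were added after the values had been seen.

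**Figure D4:**
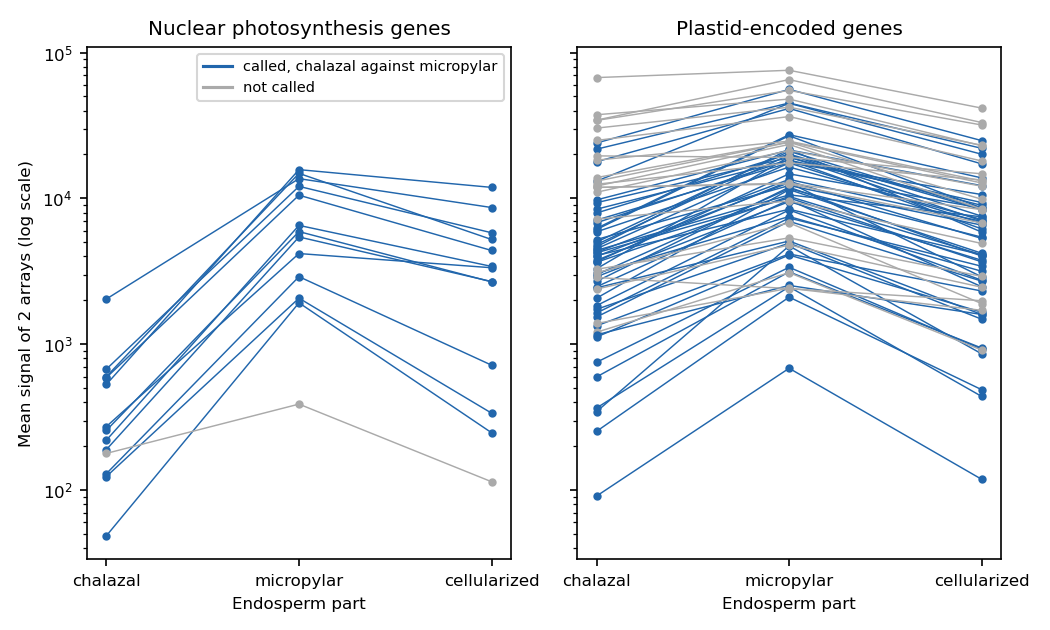
Mean signal of 2 arrays (log scale) in chalazal, micropylar and cellularized endosperm for 13 nuclear photosynthesis genes (left) and 69 plastid-encoded genes (right), with a line per gene, blue where it was called between the chalazal and micropylar parts and grey where not. The nuclear lines climb steeply between the chalazal and micropylar endosperm (median -4.37 for chalazal over micropylar), and the plastid lines less so (median -1.31).

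Each pole was then set against the cellularized endosperm between them. These comparisons share arrays with each other and with that between the poles, so their counts are given side by side only. The chalazal endosperm differed from the cellularized part at 5119 probe sets (32.1%), with 2249 (14.1%) higher and 2870 (18.0%) lower. The micropylar endosperm differed from it at 1048 (6.57%), with 679 (4.26%) higher and 369 (2.31%) lower. The balance turned when arrays were scaled to equal medians, with 39.2% of its calls higher, against 64.8%, and leaving out an array gave 255 to 460 calls, the fewest without micropylar endosperm replicate 1. Of the probe sets called between the poles, the cellularized mean was closer to the micropylar one on the log scale for 80.3% of the 2385 higher and 75.1% of the 3398 lower in the chalazal endosperm.

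Some of the named genes were among those that differed between the micropylar and the cellularized endosperm. EXPA4 was higher by 4.38 (adjusted p = 0.000364) in the micropylar than in the cellularized endosperm, SDT by 3.65 (adjusted p = 0.0108) and HPR by 2.28 (adjusted p = 0.0428), and these were the 3 of the 14 named genes lower at the chalazal pole for which that call was made. GH9C1 and SWEET11, by contrast, had means of 8015 and 5017 in the micropylar endosperm, against 24728 and 11210 in the cellularized endosperm, differences that were not called (adjusted p = 0.213 and 0.343). PLIM2a had a mean of 1.81 in the micropylar endosperm, against 293.1 in the cellularized endosperm (-3.74 for micropylar over cellularized, adjusted p = 0.024). Its level in the chalazal endosperm was higher than in the cellularized part by 2.25, which was not called (adjusted p = 0.0807). UBC30 was also called lower in the micropylar than in the cellularized endosperm (-1.14, adjusted p = 0.0233). Plastid-encoded genes differed mainly on the micropylar side, with 5 of 69 lower in the chalazal and 37 higher in the micropylar endosperm, each against the cellularized part. Shares over all probe sets were 18.0% and 4.26%. The 37 calls come from the comparison whose balance turned with equal medians. For the 13 nuclear photosynthesis genes the counts were 12 lower in the chalazal and 6 higher in the micropylar endosperm.

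**Figure D5:**
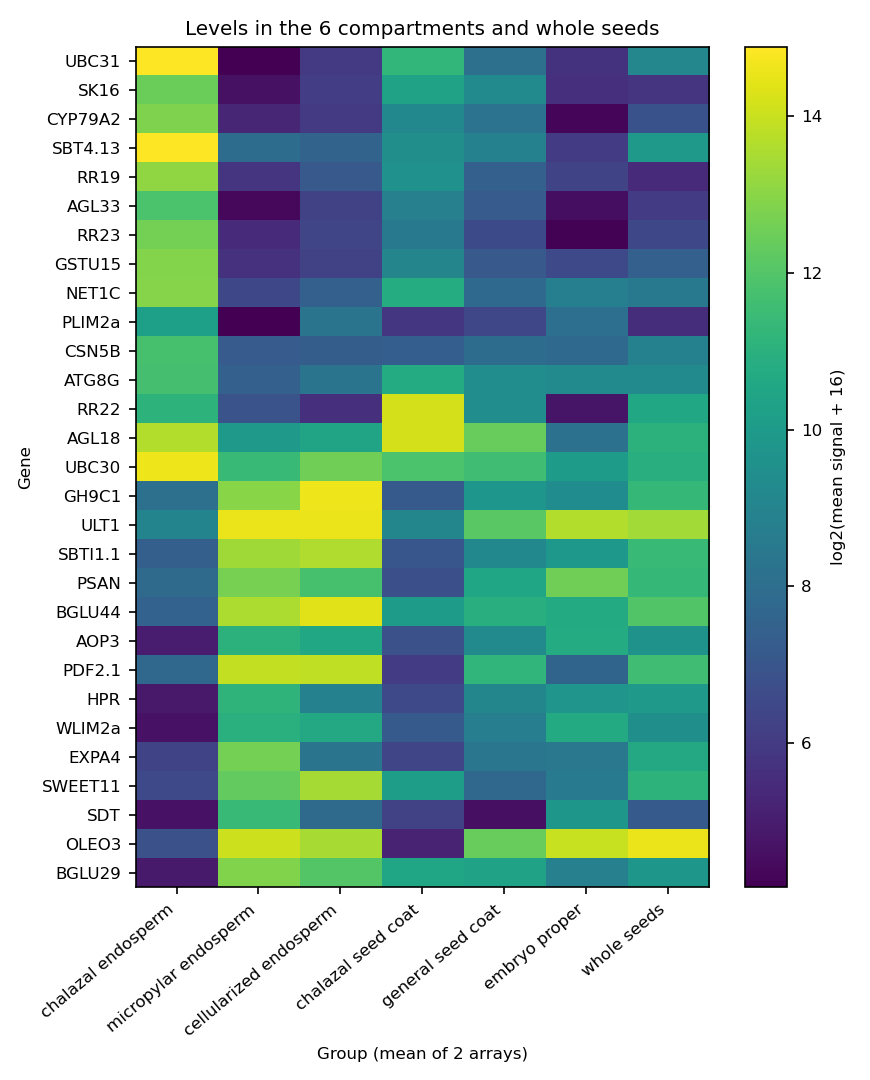
Mean level of the 29 genes picked by rule, as log2(mean signal + 16), in each of the 7 groups of 2 arrays, with genes ordered by the change between the chalazal and micropylar endosperm. The upper genes are brightest in the chalazal endosperm except RR22 and AGL18, which have means of 18442 and 18919 in the chalazal seed coat, and the lower genes are dark there and bright in the micropylar column and, for most, the cellularized column.

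Among other compartments, both chalazal endosperm arrays exceeded all 8 arrays of the embryo, cellularized endosperm and seed coat for 13 of the 15 named genes that were higher, and for 1428 of the 2385 probe sets. The exceptions among the named genes were RR22 and AGL18. Named genes were picked for large changes between the poles, and the called probe sets for a difference between them, so the counts in this paragraph test nothing. The same shares over all probe sets tested were not computed. In 317 of the 2385 probe sets the chalazal seed coat had a higher mean than the chalazal endosperm. Of the 3398 probe sets lower in the chalazal endosperm, the embryo proper had a higher mean than the micropylar endosperm for 1144, and both micropylar arrays exceeded both whole-seed arrays for 1685 and for 13 of the 14 named genes, all but OLEO3.

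Summed markers of neighbouring tissues read well below their level in the seed coat or embryo at both poles, though single embryo markers came closer. Of 12 listed seed coat markers 2, DFR and BAN, enzymes of tannin synthesis, had a probe set. Their summed signal was 1047 and 1006 on the chalazal arrays and 917.4 and 720.1 on the micropylar arrays, against means of 15102 in the chalazal seed coat and 122.7 in the cellularized endosperm, and neither differed between the poles at the threshold (0.40, adjusted p = 0.501, for DFR and 0.00, adjusted p = 1, for BAN). Against the cellularized endosperm DFR and BAN were called higher at each pole. DFR was higher by 2.86 in chalazal and 2.46 in micropylar endosperm, and BAN by 2.72 in each. Of 18 embryo markers 4 had a probe set, with sums of 182.6 and 134.6 on the chalazal arrays and 205.2 and 442.8 on the micropylar arrays, against 3685 in the embryo proper and 1273 in the cellularized endosperm. PHV, a regulator of the adaxial side of organs, made up most of that last sum, with a mean of 1125 there and 511.6 in the embryo proper, so the sum is no measure of embryo RNA. YAB3, which marks the abaxial side of cotyledons, read 9.7 and 9.32 in chalazal and 26.8 and 10.6 in micropylar endosperm, against 2409 in the embryo. BBM read 81.1 and 44.0 in chalazal and 95.8 and 171.1 in micropylar endosperm, against 384.7 in the embryo. The poles differed for 2 of the 4, in opposite directions. YAB5, of the same family as YAB3, read 68.8 and 62.6 in chalazal and 3.64 and 1.93 in micropylar endosperm (2.12, SE 0.75, adjusted p = 0.0334), a call that ended without any 1 of the 4 arrays (adjusted p of 0.0971 to 0.116). PHV read 23.1 and 18.8 in chalazal and 79.0 and 259.2 in micropylar endosperm (-2.13, SE 0.64, adjusted p = 0.014), a call that ended without chalazal endosperm replicate 2 (adjusted p = 0.0569) or micropylar endosperm replicate 2 (adjusted p = 0.191). Counts in the wider lists were 1 rise and 1 fall among 7 flavonoid and seed coat genes (median 0.00) and 1 rise and 2 falls among 6 embryo genes (median -0.71). Among all probe sets 15.0% rose and 21.3% fell.

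The remaining lists were mixed. In the cell cycle list 6 of 14 tested genes fell and 4 rose, against 21.3% and 15.0% of all probe sets, with a median of -0.92. ATMAP65-6, a microtubule-associated protein, read 2.53 and 3.31 in chalazal and 1132 and 937.1 in micropylar endosperm (-5.79, SE 0.84, adjusted p = 2.97e-05), and HBT, a subunit of the anaphase-promoting complex that drives exit from mitosis, fell by 2.56 (SE 0.54, adjusted p = 0.00117). These were the 2 falls that held under every alternative in which they were tested, and 0 of the 4 rises did. HBT is also named CDC27b, and the largest of the rises was CDC27a (3.20, SE 0.73, adjusted p = 0.00203). It read 566.3 and 1160 in chalazal and 28.5 and 165.4 in micropylar endosperm. PRL, a replication licensing gene, stood at -0.72 (adjusted p = 0.269). Of 10 auxin genes 1 fell and 0 rose (median -0.28). That gene, YUC6 of auxin synthesis (-2.43, SE 0.82, adjusted p = 0.0267), lost its call without chalazal endosperm replicate 1 (adjusted p = 0.139) or micropylar endosperm replicate 2 (adjusted p = 0.236). The gibberellin and abscisic acid list came down to 3 gibberellin receptor genes, GID1A, GID1B and GID1C, with no abscisic acid gene tested. Of these 1 fell and 0 rose (median 0.86). The fall was GID1A, whose call ended under 11 of the alternatives. Of 2 ribosomal protein genes 0 were called (median 0.49).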

How the data were processed

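Each deposited value is the linear signal intensity of 1 probe set on a 1-colour array. The authors processed them with GCOS, per the submitters' processing notes, and scaled each array, since the mean without the lowest and highest 2% of the 22810 probe sets is 500 on all 14. Array medians ran from 106.6 to 183.1. Precision is limited by the number of arrays.

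The fit used log2(signal + 16) in limma 3.58.1 (R 4.3.3), with 1 mean for each of 7 groups over the 14 arrays (7 residual degrees of freedom) and a variance trend. Without the 64 controls there were 22746 probe sets, and the 15949 that reached the median of their array on 2 or more arrays were tested. Tests were two-sided and adjusted by Benjamini-Hochberg over all probe sets tested, and a call needs an adjusted p below 0.05 and a 2-fold change. Fold changes of dim genes depend on the pseudocount. The fit was tested on simulated data.

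The platform table names 1 gene for 13513 probe sets, several for 503 and none for 8794, and 13436 matched the RefSeq gene table. Only 1580 have a symbol, of which 1203 were tested, so each list holds a small part of its pathway. No genome build is given in the sources used here. Genes were named by rule among calls with 1 symbol in which both arrays of one pole lay beyond both of the other. These were the 10 largest changes each way, and the 6 largest each way with a lower group mean of at least 100, besides members of lists. A gene with several probe sets was represented by the one with the larger mean over the 4 arrays. The members, lists and markers were chosen with earlier results of these data known. Some list members were removed as wrong matches, and the organelle lists and gene families were added, after the values had been seen.

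Alternatives were pseudocounts of 1 and 64, no filter and a stricter one, equal medians, quantile normalization, only the 4 arrays compared, no whole seeds, the replicate number as a block, no variance trend, and each of the arrays compared left out. Replicate numbers did not pair the samples.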

Additional observations from a re-analysis of the deposited data

How the results depend on the processing

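Under the 14 alternatives the calls between the chalazal and micropylar endosperm numbered 4169 to 5972, against 5783, with 4169 to 4625 when 1 of the 4 arrays was left out. All 29 genes picked by rule kept their calls. Of 242 called genes followed, 75 lost their call under at least 1 alternative, 43 of them under one other than leaving out an array. 0 of these changed direction. BAN, which was not called, ran from -0.32 to 0.32 when an array was left out, and stood at 0 with a pseudocount of 1. The comparison of micropylar with cellularized endosperm was the less stable, with 652 calls without the variance trend and 255 to 460 when an array was left out, against 1048. With equal medians 39.2% of its calls were higher, against 64.8%, and the median over all probe sets was -0.21, against 0.08. The causes were not tested.

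Samples with the same replicate number did not deviate together, with correlations of -0.11 to 0.15 over 21 pairs of groups, 1 of them above 0.1. With the replicate number as a block 5791 probe sets were called between the poles, against 5783, 5132 between chalazal and cellularized endosperm and 1022 between micropylar and cellularized endosperm. The call of GID1A ended with the block (adjusted p = 0.0557), as did those of 3xHMG-box1, AUR3 and SCPL43. With 2 arrays a group, differences close to the threshold cannot be settled.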

Other observations

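Gene families outside the lists, with at least 6 tested members, were counted after the values had been seen, so their counts are descriptions. ATG8 proteins are attached to the membrane of autophagosomes, which carry cell material to the vacuole. Of the 8 tested autophagy genes 4 were called higher in the chalazal endosperm and 0 lower, against 15.0% and 21.3% of all probe sets, with a median of 1.53. ATG8G read 3699 and 2929 in chalazal and 112.3 and 203.1 in micropylar endosperm (4.30, SE 0.45, adjusted p = 8.13e-07), while ATG8E was higher by 2.88 (SE 0.58, adjusted p = 0.000803), ATG8B by 2.63 (SE 0.53, adjusted p = 0.00076) and ATG8F by 1.34 (SE 0.25, adjusted p = 0.000447). ATG8C and ATG8D stood at 0.01 (adjusted p = 0.984 and 0.987). These 4 calls held under every alternative in which they were tested.

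Vacuolar sorting proteins of the ESCRT complexes, which bud membrane into the lumen of endosomes, included pairs of closely related genes that went opposite ways. VPS24.1 read 8018 and 7125 in chalazal and 1031 and 1385 in micropylar endosperm (2.64, SE 0.37, adjusted p = 2.25e-05), whereas VPS24.2 fell by 1.87 (SE 0.61, adjusted p = 0.0225). VPS2.1 rose by 1.96 (SE 0.37, adjusted p = 0.000421), whereas VPS2.2 fell by 3.46 (SE 0.61, adjusted p = 0.000234). In another pair both rose, VPS60.1 by 2.03 (SE 0.45, adjusted p = 0.00165) and VPS60.2 by 2.52 (SE 0.43, adjusted p = 0.00017). Of 9 genes 4 rose and 2 fell, against 15.0% and 21.3% of all probe sets, with a median of 0.89. The 4 rises and 1 of the 2 falls held under every alternative in which they were tested.

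IQD proteins, which bind calmodulin and are known for their association with microtubules, were mostly lower in the chalazal endosperm, 8 of 11 tested and 1 higher, against 21.3% and 15.0% of all probe sets, with a median of -2.54. IQD16 read 129.2 and 8.31 in chalazal and 1399 and 2299 in micropylar endosperm (-4.93, SE 0.64, adjusted p = 9.86e-06), and IQD28 read 143.8 and 57.0 against 2704 and 2053 (-4.46, SE 0.45, adjusted p = 5.63e-07). Of the 8 falls, 5 held under every alternative in which they were tested. Actin-binding NET proteins fell in 4 of 8 tested genes and rose in 1, NET1C, with a median of -1.69, and NET4B read 20.0 and 126.5 in chalazal and 1752 and 1138 in micropylar endosperm (-4.32, SE 0.85, adjusted p = 0.000597). Aldehyde dehydrogenases fell in 5 of 8 and rose in 0 at the threshold (median -1.95), and TBL genes, which act in the acetylation of wall polysaccharides, fell in 6 of 15 and rose in 1 (median -1.78).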
